A study of Rattus norvegicus and Mus musculus and Macaca mulatta with 84 samples.

Results

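The genes described here are 8 liver genes of glycolysis and fructose breakdown, chosen by name: Slc2a2, Gckr, Gpi, Pfkl, Pfkfb1, Pklr, Ldha and Khk. All 8 were found among the 32754 genes of the rat RNA table, and 7 among the 48440 genes of the mouse table. Gpi was not matched by that symbol in mice, where the table lists Gpi1. All of the genes found had a mean of at least 10 normalized counts and entered the tests. The series has 84 samples, all of liver, from rats, mice and macaques, of which 31 polyadenylated RNA libraries in 6 groups are used here. Rat livers came from the UCD-T2DM strain, in which animals become obese and insulin resistant before diabetes appears. Of these, 5 libraries came from prediabetic rats, and 4, 5 and 6 from rats whose diabetes had lasted 2 weeks, 3 months and 6 months. All 4 rat groups carry the same strain background, and no lean or other-strain group with RNA libraries was analysed here. Mouse livers came from C57BL/6J animals given LNA-29 (n = 5), a locked nucleic acid directed at the microRNA miR-29, or from the matching control group (n = 6). The labels give no age or sex for either species and no dose, duration or control agent for the mice. They number the replicates without saying that each was a separate animal, so p-values measure only the spread between these libraries.

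The liver takes up glucose through the transporter encoded by Slc2a2 (GLUT2) and then phosphorylates it, a step that the regulatory protein encoded by Gckr restrains when sugar is scarce. Sugar phosphates then pass through phosphoglucose isomerase (Gpi), phosphofructokinase (Pfkl) and, further down, pyruvate kinase (Pklr), and lactate dehydrogenase A (Ldha) interconverts pyruvate and lactate. Fructose enters below phosphofructokinase after ketohexokinase (Khk), and in liver both insulin and sugar supply are known to raise transcription of several of these genes, partly through the sugar-sensing factor ChREBP.

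Promoters of the pair of genes with the largest falls in diabetes are shown first, because one of them holds a match to the element that ChREBP is known to bind. Each runs from 250 bases before to 50 bases after the annotated start in RefSeq on GRCr8, 5′ to 3′ on the gene's strand. Capitals mark in Pklr a match to the spacing of a carbohydrate response element (CACG, then 9 bases of any kind, then CGTG), and in Ldha the E-box CACGTG.

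Pklr, chr2:176841014-176841313, plus strand: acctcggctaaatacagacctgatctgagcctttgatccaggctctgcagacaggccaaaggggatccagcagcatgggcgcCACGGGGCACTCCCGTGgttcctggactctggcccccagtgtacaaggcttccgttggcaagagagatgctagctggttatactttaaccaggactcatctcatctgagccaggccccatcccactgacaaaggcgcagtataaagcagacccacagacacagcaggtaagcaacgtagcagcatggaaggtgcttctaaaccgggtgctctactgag

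Ldha, chr1:106507842-106508141, plus strand: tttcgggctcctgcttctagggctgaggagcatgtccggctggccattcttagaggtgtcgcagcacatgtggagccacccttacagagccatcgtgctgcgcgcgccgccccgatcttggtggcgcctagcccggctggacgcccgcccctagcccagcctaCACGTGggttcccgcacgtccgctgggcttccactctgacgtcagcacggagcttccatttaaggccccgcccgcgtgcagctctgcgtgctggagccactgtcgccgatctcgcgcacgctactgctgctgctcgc

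The first capital of the Pklr match lies 168 bases before the start, and that of the Ldha match 87 bases before it. Among the 8 promoters Pklr was the only holder of the spaced element, which 61 of 33469 RefSeq promoters of this length held (0.182%). It was also the only holder among the 91 promoters of these genes and of the wider pathway lists described below. Only this exact form was searched for, so elements with other letters or outside the window may be present in the other genes. The E-box was found in Ldha alone of the 8 and in 6.42% of all promoters. The shorter ACGTG, a core of hypoxia response elements that lies inside the E-box, was found in Ldha and Gpi and in 19.3% of all promoters. The letters GTTAAT (7.45% of all), TCACNCCAC (1.12%) and CAAAGTCCA (0.391%) were in none of the 8 windows. Each is a single short form of an HNF1, SREBP or HNF4 site. Sites of these factors with other letters were not searched for, so their absence was not shown. Both strands were searched, and a match describes letters in the window, not binding. The promoters of Gckr (chr6:30795578-30795877, minus strand) and Khk (chr6:31175432-31175731, minus strand) lie on the same chromosome.

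The microRNAs that LNA-29 is directed at share a seed, bases 2 to 8, which is set in capitals in the rat sequences from RefSeq.

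rno-miR-29a-3p, chr4:60617968-60617989, minus strand: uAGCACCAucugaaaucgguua

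rno-miR-29b-3p, chr4:60618342-60618364, minus strand, and chr13:109098882-109098904, plus strand: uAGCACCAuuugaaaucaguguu

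rno-miR-29c-3p, chr13:109099412-109099433, plus strand: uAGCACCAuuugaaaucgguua

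The seed AGCACCA is the same in all of them.

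The authors' normalized counts summed to 37623525 to 49858906 per rat library and 43341525 to 52750017 per mouse library, and the 10 highest genes held 20.4% to 30.9% of a rat library. Of 9 listed hepatocyte markers 7 were in the rat table, all with means above the filter, and their summed level was 4990233 to 6737765 in prediabetic rats and 5438494 to 9261587 at 6 months. Other cell types moved with diabetes: 7 of 8 tested Kupffer cell and macrophage markers rose at both 3 and 6 months against prediabetic. Their sum was 10906 to 15985 in prediabetic rats, 14961 to 35069 at 3 months and 16091 to 44493 at 6 months. Stellate cell markers rose in 5 of 9 cases at 3 months, with sums of 6447 to 9775 before diabetes and 10679 to 14089 at 3 months. At 6 months 4 of 9 rose and 2 had changes below 0, and the sum of 9047 to 14603 overlapped the prediabetic range. In lymphocyte and neutrophil markers 3 of 7 rose at 3 months and 4 of 7 at 6 months, while Mpo stayed under a mean of 1. Of the bile duct markers 3 of 6 and of the endothelial markers 1 of 6 rose at 6 months. Of all genes tested, 7.76% rose at 3 months and 11% at 6 months. Of 5 red blood cell markers Slc4a1 rose at 3 and 6 months, while 4 of the 5 had changes below 0 at 6 months (median -0.43). The red cell sum was 14265 to 22905 in prediabetic rats and 9643 to 12827 at 2 weeks, where 3 of 5 markers lay wholly lower without a call. Cfd was the single adipocyte marker tested. Cela1, the single pancreatic acinar marker tested, fell by 0.99 on the log2 scale at 6 months, and no skeletal muscle marker passed the filter. Hepatocyte markers were mixed, with Ttr, the transthyretin gene, changed by -1.22 and Serpina1 by 0.56 at 6 months, and Ttr and Cps1 lower at 3 months. In whole liver, fewer cells of a type and less RNA per cell cannot be told apart, and the part of these shifts in the results below was not tested.

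Most of the 8 genes were lower in long-standing diabetes than before it. After 3 months Pklr, Ldha, Khk, Gpi and Pfkl had fallen against prediabetic rats, 5 of 8 genes where 16.5% of all 13640 genes tested were called, 8.72% lower and 7.76% higher. After 6 months Gckr had fallen as well, 6 of 8 genes where 21.1% of all genes tested were called, 10% lower and 11% higher. After 2 weeks none of the 8 passed the test and 0% of all genes tested did, although limma gave 3 of the 8 and 1077 of all genes an unadjusted p under 0.05. The median log2 change of the 8 was -0.32 at 2 weeks, -0.56 at 3 months and -0.62 at 6 months, beside medians over all genes of 0.02, 0.02 and 0.01. The 3 comparisons share the prediabetic libraries, so their values are given side by side. The log2 change here is on log2(normalized count + 1), a gene is called at an adjusted p under 0.05 in limma over all genes tested, and intervals are 95%.

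**Figure D1:**
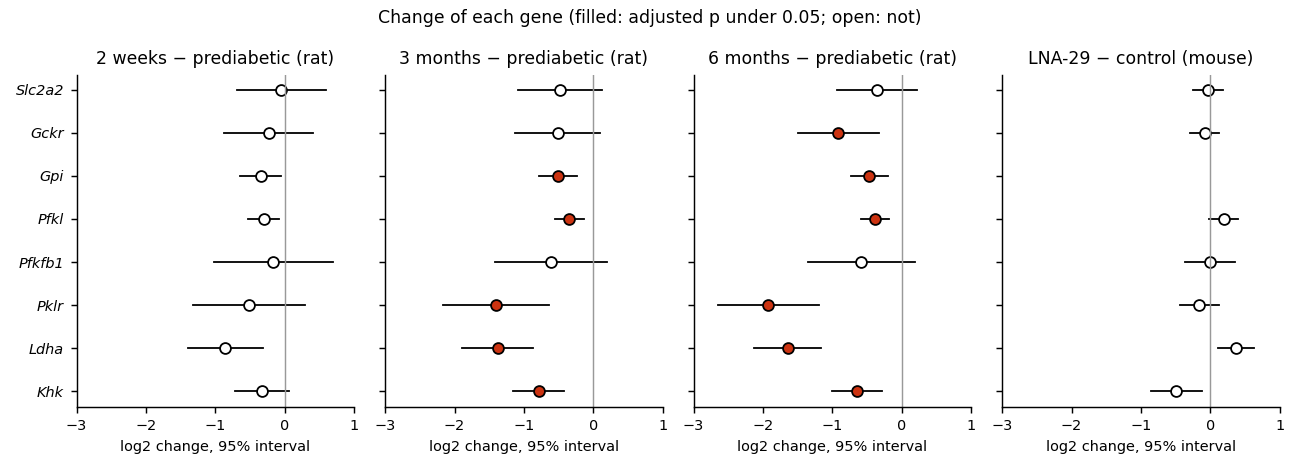
Log2 change of each gene with its 95% interval in 3 rat comparisons and 1 mouse comparison. Filled points passed an adjusted p under 0.05; at 6 months Pklr (-1.93) and Ldha (-1.65) lie farthest to the left and no point is filled at 2 weeks or in mice.

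At the way into the pathway, Slc2a2, the low-affinity glucose transporter of hepatocytes, did not pass the test at any stage. Its prediabetic libraries ranged from 10106 to 19109.8 normalized counts and those at 3 months from 5106.5 to 18144, so the groups overlapped. The change at 6 months was -0.36 (95% interval -0.94 to 0.21, adjusted p = 0.375), which does not exclude a change of the size seen in Khk below. At 2 weeks the change was -0.05, and it was 0.03 after rescaling to the same total.

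Gckr encodes a nuclear regulatory protein that restrains hepatic glucose phosphorylation. The prediabetic libraries held 8739, 9353, 5116.5, 4716 and 5817 normalized counts of Gckr. Those at 2 weeks held 5239, 6239.9, 7712 and 3652, and those at 3 months 4361, 3560.4, 5164, 3292 and 7268. At 6 months Gckr stood at 1936 at the lowest, 3393 at the median and 6055 at the highest. Prediabetic replicates 1 and 2 were the highest of all, 5 of 6 libraries at 6 months lay under every prediabetic library, and the groups overlapped. Means were 6748 ± 2145 (SD, n = 5) and 3684 ± 1504 (SD, n = 6), a log2 change of -0.92 (SE 0.28, adjusted p = 0.0253). The changes of -0.24 at 2 weeks and -0.52 at 3 months did not pass. The call at 6 months was lost without prediabetic replicate 1 (-0.81, adjusted p = 0.0654) or 2 (-0.78, 0.0552), or without 6 months replicate 2 (-0.84, 0.0525), 5 (-0.88, 0.0522) or 6 (-0.75, 0.0591).

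In the upper pathway, Gpi and Pfkl fell at 3 and at 6 months. Gpi, which converts glucose 6-phosphate to fructose 6-phosphate, ranged from 3542 to 4529 in prediabetic rats and from 2559 to 3252 at 6 months. All 6-month libraries lay below all prediabetic ones, as for 5.17% of all genes tested. At 3 months replicate 5 held 3938, inside the prediabetic range, and the other 3-month libraries held 2912 or less. Gpi changed by -0.51 at 3 months (SE 0.13, adjusted p = 0.0133) and by -0.47 at 6 months (SE 0.13, adjusted p = 0.013). The 3-month call was lost when only those groups were fitted (adjusted p = 0.0587).

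Pfkl, the liver form of phosphofructokinase, held 1940.5, 2115, 1947, 2511 and 2525 in prediabetic libraries. At 2 weeks it held 1911, 1708, 1709.9 and 1761, and at 3 months 1764.5, 1402.5, 1714, 1859 and 1929. Each library at 2 weeks, 3 months and 6 months lay below every prediabetic library, although the gap was as small as that between 1929 and 1940.5. Such separation was found for 6.6% of all genes tested at 3 months, where Ldha was the other of the 8. Pfkl changed by -0.35 at 3 months (SE 0.10, adjusted p = 0.0232) and by -0.39 at 6 months (SE 0.10, adjusted p = 0.00773). Its 3-month call was lost without prediabetic replicate 4 (-0.30, adjusted p = 0.0701) or 5 (-0.30, 0.0649) or 3 months replicate 2 (-0.27, 0.0691). Rescaling to the same total (adjusted p = 0.0804) and fitting those groups alone (0.0803) also ended it.

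Pfkfb1 encodes the liver bifunctional enzyme that makes and removes fructose 2,6-bisphosphate, the activator of phosphofructokinase. It did not pass at any stage. Libraries ranged from 1403 to 2805 before diabetes, from 579 to 2272.6 at 3 months and from 582 to 2369 at 6 months, so the groups overlapped throughout. The change at 6 months was -0.58 with an interval of -1.36 to 0.19.

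The largest log2 changes among the 8 genes at 3 and 6 months were in Pklr and Ldha, at the exit of the pathway. Pklr, the liver and red-cell pyruvate kinase whose promoter is printed above, held 5111, 5178, 5299, 7343 and 6489 in prediabetic libraries. At 2 weeks Pklr held 4627.5, 4774, 4662 and 2684, and at 3 months 2109.9, 1273, 2185, 1295 and 6834. At 6 months Pklr stood at 911.5 at the lowest, 1727 at the median and 2250.2 at the highest. All libraries at 2 weeks and at 6 months lay below every prediabetic library, and at 3 months replicate 5 alone stayed in the prediabetic range. The part of red cells, whose marker sum was also wholly lower at 2 weeks, was not tested. The lack of overlap at 2 weeks was shared by Pfkl, Khk and Gpi, 4 of 8 genes, beside 2.29% of all genes tested.

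Means of Pklr were 5884 ± 991.5 (SD, n = 5) in prediabetic and 1636 ± 609.8 (SD, n = 6) in 6-month rats. The log2 change was -1.93 at 6 months (SE 0.35, adjusted p = 9.8e-04), a ratio of 0.263. At 3 months the change was -1.40 (SE 0.36, adjusted p = 0.0137), and -1.81 without replicate 5. At 2 weeks it was -0.51 (interval -1.32 to 0.29) and did not pass.

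Ldha, the subunit of lactate dehydrogenase that is well expressed in liver, held 63049, 95004, 74035, 99826 and 109777 in prediabetic libraries. At 2 weeks Ldha held 53415.6, 69353, 48161 and 29171, and at 3 months 34641, 32095, 39147, 23434 and 40357. At 6 months it stood at 16876 at the lowest, 29295 at the median and 37695 at the highest. Every library at 3 and 6 months lay below the lowest prediabetic library, and at 2 weeks replicate 2 alone reached the prediabetic range. Ldha changed by -1.38 at 3 months (SE 0.24, adjusted p = 0.00141) and by -1.65 at 6 months (SE 0.23, adjusted p = 1.4e-04), a ratio of 0.320. Both calls held under every setting tried and with each library left out in turn. The change of -0.86 at 2 weeks (unadjusted p = 0.00352 in limma) was lost after adjustment (adjusted p = 0.416).

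On the fructose branch, Khk, which phosphorylates fructose to fructose 1-phosphate, held 10864, 13916, 9549, 11714 and 10538 in prediabetic libraries. At 3 months Khk held 4186, 5114, 7904, 7037 and 9784, and at 6 months it stood at 6148 at the lowest, 6981.5 at the median and 8975 at the highest. All 6-month libraries lay below all prediabetic ones, and at 3 months replicate 5 again reached the prediabetic range. The change was -0.79 at 3 months (SE 0.18, adjusted p = 0.00636) and -0.65 at 6 months (SE 0.17, adjusted p = 0.0113). Both calls held under every setting and omission tried.

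**Figure D2:**
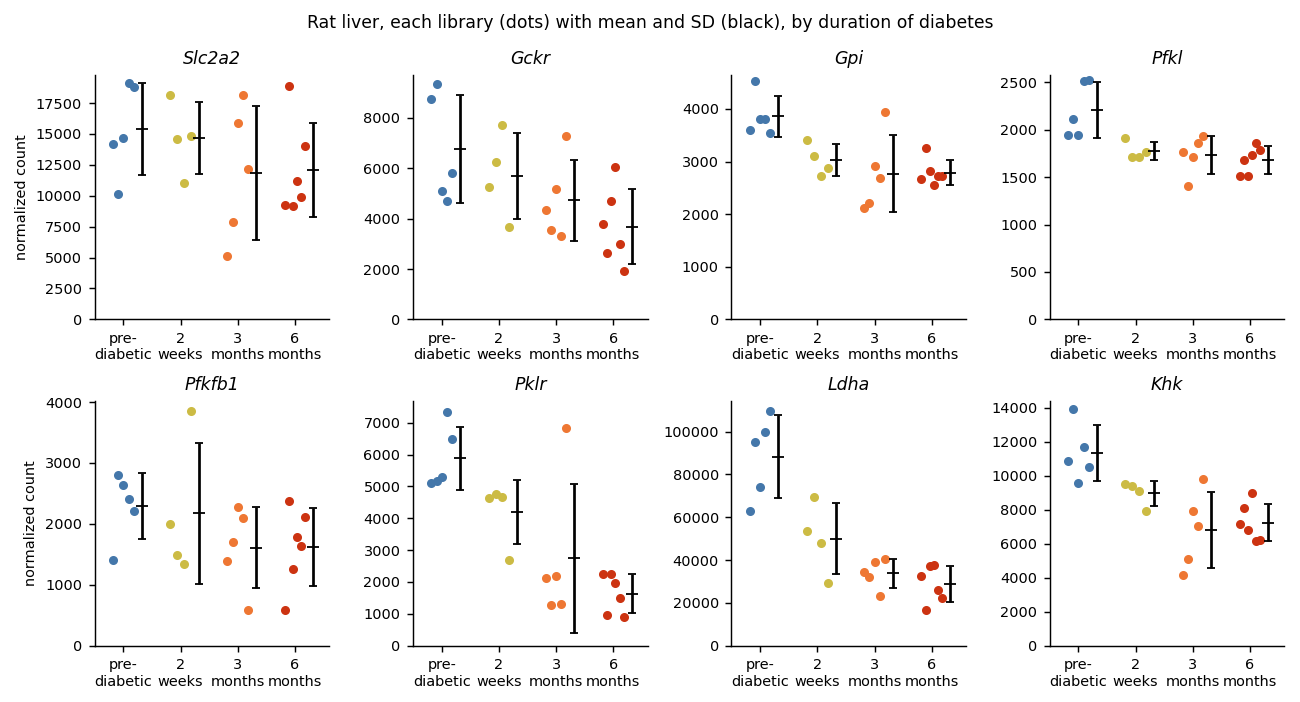
Normalized counts of the 8 genes in each rat library by stage, with mean and SD in black; each panel has its own axis starting at 0. Ldha drops from a prediabetic range of 63049 to 109777 to a 6-month range of 16876 to 37695, and 3 months replicate 5 stands at 6834 for Pklr, above the other 3-month libraries.

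No comparison of neighbouring stages called any of the 8 genes. None was called at 3 months against 2 weeks, where 2.35% of all genes were called and limma gave 2 of the 8 an unadjusted p under 0.05. None was called at 6 against 3 months, where 0.0147% of all genes were called and none of the 8 had an unadjusted p under 0.05. At 6 months against 2 weeks Pklr alone of the 8 fell, where 8.82% of all genes were called (4.16% lower, 4.66% higher), by 1.41 on the log2 scale (SE 0.37, adjusted p = 0.0249). Every 6-month library lay below every 2-week library for Pklr, as for 5.05% of all genes tested. Ldha had a change of -0.79 there (adjusted p = 0.0535), and it was called after rescaling to the same total (-0.96, adjusted p = 0.012). It was also called without 2 weeks replicate 4 (-1.03, 0.0236), 6 months replicate 3 (-0.87, 0.0467) or 6 months replicate 4 (-0.88, 0.03). The Pklr call was lost without 2 weeks replicate 1 (-1.35, adjusted p = 0.0731), 2 (-1.34, 0.0866) or 3 (-1.35, 0.0565), and without 6 months replicate 2 (-1.28, 0.0504) or 6 (-1.26, 0.0552). At 3 months against 2 weeks Pklr was called once 3 months replicate 5 was left out (-1.30, adjusted p = 0.0202).

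Of 22 other glycolytic enzymes tested at 6 months against prediabetic, 8 rose and 5 fell, with a median change of 0.16. Over all genes tested, 11% were called higher and 10% lower there. Aldoc, Hk3 and Eno2, forms of aldolase, hexokinase and enolase that are abundant in brain or blood cells, led the rises with changes of 1.69, 1.61 and 1.55. Hk2, the muscle and fat hexokinase, rose by 1.28 and Pfkm, the muscle phosphofructokinase, by 1.07, while Pfkl fell. Ldhb, the partner subunit of lactate dehydrogenase, rose by 0.85 (mean 65.3 to 121, adjusted p = 0.00966) while Ldha fell. Aldoa rose by 0.55 and Hk1 by 0.49. The pyruvate kinase Pkm had a change of 0.64 that did not pass (adjusted p = 0.0663). Among the genes of this list that fell were Ldhd (-0.60), Eno1 (-0.44), Pgk1 (-0.44) and Pgam1 (-0.24). Ldhd encodes a mitochondrial D-lactate dehydrogenase and was listed here by name, not as a step of glycolysis. The Pgk1 and Pgam1 calls were lost in 4 and 8 of 11 omissions, and each in 1 other setting.

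Hk3 went from a mean of 76.9 to 312, with all 6-month libraries above all prediabetic ones as for 4.63% of all genes tested, and Hk2 from 24.1 to 65.8. Marco and Cd68, macrophage markers, rose over the same comparison by 1.82 and 0.81, and S100a8, a neutrophil marker, by 2.99. The part of such cells in the rises of Hk3, Hk2, Aldoc and Eno2 was not tested. The Eno2 and Hk1 calls did not survive rescaling to the same total (adjusted p = 0.0581 and 0.0971), and their direction stayed the same. The Eno2 call was also lost in 3 other settings and 7 of 11 omissions. For Hk1 these were 2 other settings and 5 of 11 omissions.

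**Figure D3:**
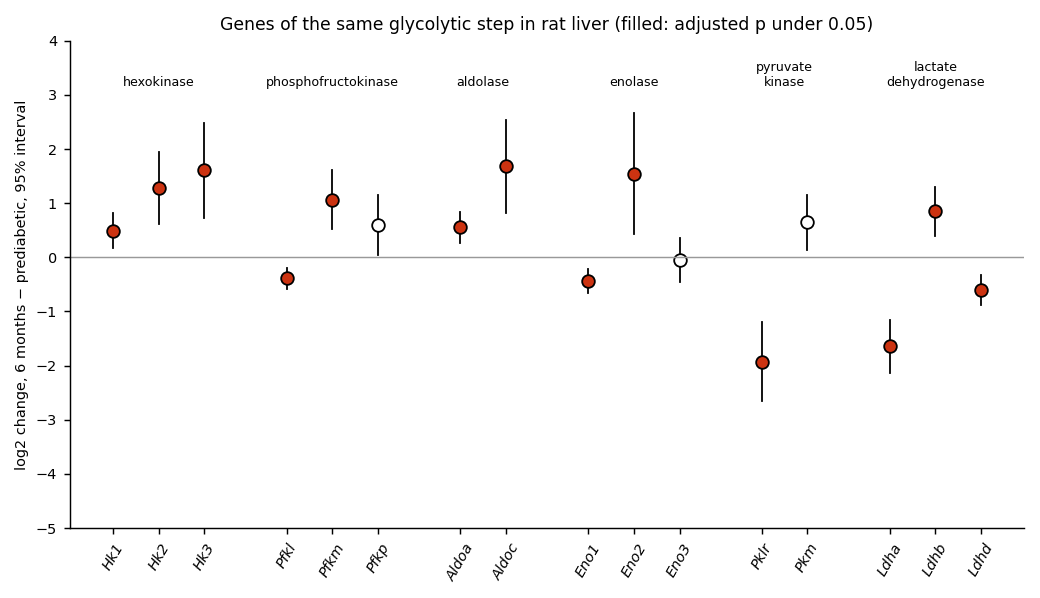
Log2 change at 6 months against prediabetic, with 95% intervals, of genes grouped by glycolytic step; filled points passed an adjusted p under 0.05. Pfkl, Eno1, Ldhd, Pklr and Ldha lie below 0, while Hk1, Hk2, Hk3, Pfkm, Aldoa, Aldoc, Eno2 and Ldhb lie above it. Ldhd, a mitochondrial D-lactate dehydrogenase, is placed beside Ldha and Ldhb by name only. The grouping was chosen after the values were seen.

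At 3 months the same list of 22 had 1 rise, Hk2 (1.39), and 4 falls: Ldhd (-0.59), Pgk1 (-0.59), Gapdh (-0.54) and Eno1 (-0.45). Its median was 0.32, above 0 although more of the called genes fell than rose. Over all genes tested, 7.76% were called higher and 8.72% lower at 3 months.

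The other enzymes of fructose and polyol metabolism mostly went down with Khk. At 3 months 5 of 9 tested fell and none was called higher, with 1 change above 0 (0.41) and a median of -0.55. The shares of all genes called were 16.5% at 3 months and 21.1% at 6 months. Gpd1, the glycerol 3-phosphate dehydrogenase, fell by 1.12 (mean 37552 to 16971, adjusted p = 9.1e-04). Every 3-month library lay below every prediabetic one for this gene, as for 6.6% of all genes tested. Tkfc, the triokinase that follows Khk, fell by 0.98 (adjusted p = 0.0203). Aldh3a2 and Aldh2, aldehyde dehydrogenases, fell by 0.64 and 0.55. At 6 months 5 of 9 fell, led by Aldh1b1 (-2.49), Gpd1 (-1.25) and Tkfc (-0.90). Akr1b1, the aldose reductase that starts the polyol route from glucose to fructose, was the 1 gene that rose (0.59, adjusted p = 0.01).

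Among sugar and monocarboxylate transporters, 1 rose and 2 fell of 11 tested at 3 months, and 2 rose and 1 fell at 6 months. Over all genes tested, 16.5% were called at 3 months and 21.1% at 6 months. Slc2a5, the fructose transporter GLUT5, fell by 1.89 at 3 months (mean 525 to 167) and by 1.90 at 6 months. Slc37a4, the glucose 6-phosphate transporter of the endoplasmic reticulum, fell by 0.79 at 3 months. Slc5a1, a sodium-coupled glucose transporter, rose by 0.96 and 1.26, and Slc2a6 by 1.99 at 6 months. The 3-month calls of Slc2a5 and Slc5a1 were each lost in 5 of 10 omissions, and that of Slc5a1 also in 2 other settings. For Slc5a1 and Slc2a6, whose means stayed at or below 79.6, all 6-month libraries exceeded all prediabetic ones, as for 4.63% of all genes tested.

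Genes for the fate of pyruvate fell in 5 of 13 cases at 3 months and in 8 of 13 at 6 months, with none called higher. Over all genes tested, 8.72% were called lower at 3 months and 10% at 6 months. Changes above 0 were found in 3 of the 13 at 3 months (highest 0.77) and in 2 at 6 months (highest 0.56). The leading falls at 6 months were Pdk1, a kinase that restrains pyruvate dehydrogenase (-0.75), Pdhb, a subunit of that enzyme (-0.73), and Pdp2, a phosphatase that activates it (-0.60). At 3 months they were Pdk1 (-0.84), Pdhb (-0.63) and Mpc1, a mitochondrial pyruvate carrier subunit (-0.54). The 6-month calls of Pdp2, Mpc1, Dlat and Dld were lost in 8, 7, 7 and 6 of 11 omissions. Each was also lost in 1 or more other settings, and Pdk2 was lost in 1 omission. The 3-month calls of Mpc1, Pdk2 and Pdhx were lost in 7, 6 and 5 of 10 omissions. Rescaling to the same total also ended those of Pdk2 and Pdhx. Of 8 pentose phosphate enzymes 4 fell and none was called higher at each of these stages, while 3 had changes above 0. At 3 months Pgls, Taldo1 and Tkt (a lactonase, transaldolase and transketolase) changed by -0.55, -0.52 and -0.51. At 6 months Tkt, the xylulokinase gene Xylb and Taldo1 changed by -0.67, -0.42 and -0.41. The 3-month calls of Xylb and Tkt were lost in 9 and 3 of 10 omissions. Those of Xylb and Pgls at 6 months were lost in 3 and 7 of 11.

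Of 14 carbohydrate-responsive regulators tested, 3 fell and 1 rose at 3 months, and 4 fell and 1 rose at 6 months. The shares of all genes called were 16.5% at 3 months and 21.1% at 6 months. Thrsp, a lipogenic gene that responds to sugar and thyroid hormone, fell by 2.41 at 3 months (mean 29309.5 to 8355, adjusted p = 0.00612) and by 2.08 at 6 months. Srebf1, which encodes an insulin-responsive activator of lipid synthesis, fell by 1.33 and 1.10, and Nr1h3 (LXRα) by 0.34 at 3 months. Klf10 fell by 0.90 at 6 months. Txnip, a gene raised by glucose in many cells, rose by 0.55 at 3 months and 0.50 at 6 months.

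Of 7 gluconeogenic enzymes tested, 1 rose and 3 fell at 3 months, and 1 rose and 2 fell at 6 months. Beside this, 16.5% and 21.1% of all genes tested were called at these stages. Pc, pyruvate carboxylase, fell by 0.76 and 0.98 (6 months: mean 32306 to 16483, adjusted p = 8.0e-04). Fbp1, which opposes phosphofructokinase, fell by 0.47 and 0.52, and G6pc3 by 0.45 at 3 months. The 3-month calls of Fbp1 and G6pc3 were lost after rescaling to the same total, and in 4 and 6 of 10 omissions. Pck2, the mitochondrial form of phosphoenolpyruvate carboxykinase, rose by 0.64 and 0.84. At 2 weeks none of the 84 genes of these lists passed, and Gapdh, with a change of -0.66 (adjusted p = 0.171), and Eno1 (-0.43, 0.36) had the highest means among the other glycolytic enzymes. At that stage Pck1 had a change of 0.26 (adjusted p = 0.912) and Thrsp of -0.93 (0.696). At 6 months against 2 weeks Fbp2 (1.85), Aldoc (1.53), Ldhb (0.85), Pck2 (0.85) and Aldoa (0.72) rose, and Aldh1b1 (-2.19) and Pc (-0.62) fell. These were 5 rises and 2 falls among the 84 genes, a share near the 8.82% called over all genes tested.

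Over the 4 comparisons with any call, the lists gave 80 calls. Of these, 45 held under every alternative setting and omission, 35 were lost in at least 1, and none changed direction. Those lost in 1 or more alternatives include Slc37a4, Txnip and Pck2 at 3 months, Tkfc and Pdp2 at 6 months, and all but Aldoa at 6 months against 2 weeks.

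In mice, the LNA-29 and control libraries overlapped for all 7 genes. None of 7 was called by limma, where 2.43% of 14596 genes tested were called (0.863% lower, 1.57% higher). Of all genes, 1.54% lay wholly lower and 2.4% wholly higher in treated mice. In limma 2 of the 7 (Khk and Ldha) and 2809 of all genes had an unadjusted p under 0.05. The median change of the 7 was -0.03, beside 0.0005 over all genes. Values in the rat and mouse tables were normalized separately and were not compared.

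Khk had the lowest change of the 7 in treated mice. Control libraries stood at 5441 at the lowest, 6327 at the median and 8428 at the highest, and LNA-29 libraries held 4596, 7195, 3562, 5335 and 3639.5. Means were 6682 ± 1088 (SD, n = 6) and 4865.5 ± 1493 (SD, n = 5). LNA-29 replicate 2 lay within the control range, and the other 4 treated libraries lay below every control library. The log2 change was -0.49 (interval -0.86 to -0.12, adjusted p = 0.139), and without replicate 2 it was -0.65 (adjusted p = 0.0295). Taking out a treated library within the control range makes the change larger by design. It was the 1 omission of 11 that gave a call, and with it genes called over all tested went from 355 to 540.

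Ldha had the highest change of the 7 in treated mice. Control libraries stood at 36934 at the lowest, 43129.7 at the median and 51193 at the highest, and LNA-29 libraries held 56661, 44975.5, 70543, 61323 and 52228. Treated replicate 2 alone lay inside the control range. The change of 0.37 (interval 0.10 to 0.63) did not pass (adjusted p = 0.125).

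Pfkl had a change of 0.19 (interval -0.01 to 0.39) and Pklr of -0.16 (interval -0.44 to 0.12). Gckr had -0.08 (interval -0.29 to 0.12), Slc2a2 -0.03 (interval -0.25 to 0.19) and Pfkfb1 -0.01 (interval -0.37 to 0.35). Gpi1, from the list of other glycolytic enzymes, had means of 6818 ± 504 (SD, n = 6) and 6391 ± 439 (SD, n = 5).

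**Figure D4:**
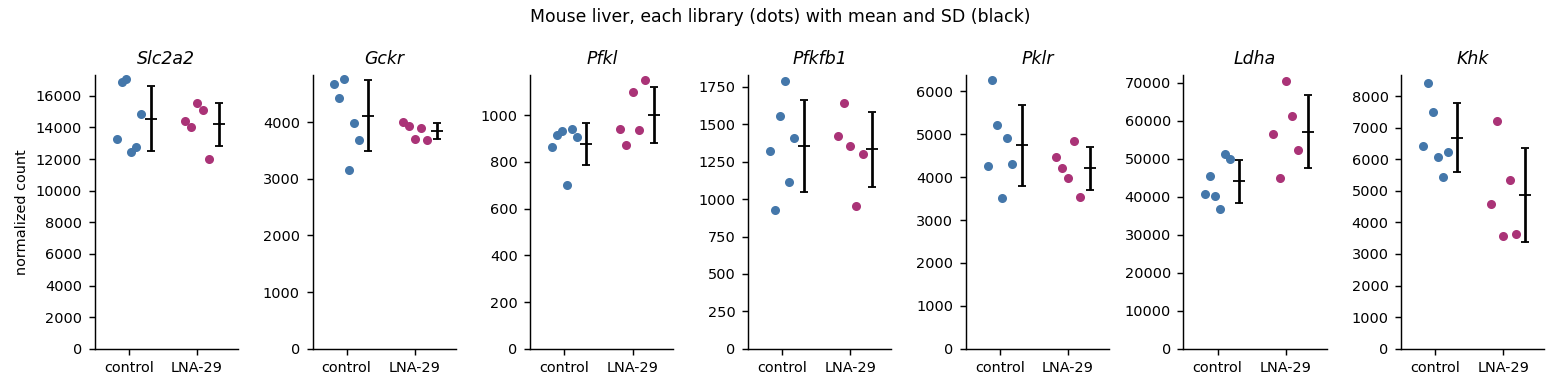
Normalized counts of the 7 genes in each mouse library, with mean and SD in black; each panel has its own axis starting at 0. Groups overlap in every panel, with 4 of 5 LNA-29 libraries below all controls for Khk and 4 of 5 above all controls for Ldha.

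Of 89 mouse genes tested in the pathway lists, 1 was called, where 2.43% of all genes tested were called. Ldhd, a mitochondrial D-lactate dehydrogenase, fell by 0.59 (mean 3703 to 2467, adjusted p = 0.0124), with all treated libraries below all controls. The genes with the highest means in the gluconeogenic and pyruvate lists, Pck1 and Mpc1, had changes of 0.42 (adjusted p = 0.481) and 0.14 (0.248). Medians of the 7 lists ran from -0.17 for the carbohydrate-responsive regulators to 0.06 for the gluconeogenic enzymes. No macrophage, stellate or bile duct marker was called in mice, while Ahsg, Clec4g and Cela2a rose among the hepatocyte, endothelial and acinar markers.

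Over the 20 rat libraries, the genes outside the set whose log2 values most resembled each member differed from member to member. Pklr was most like Ghr (Pearson r = 0.95) and Maged1 (0.95), Ldha like Pecr (0.94) and Etfdh (0.94), and Khk like Aspdh (0.96) and Fahd2a (0.94). Slc2a2 was most like Tef (0.91) and Nr1d2 (0.90), and after group means were removed those values were 0.90 and 0.93. Gckr was most like Atf5 (0.92) and Gk (0.89), Pfkl like Fbp1 (0.86) and Pttg1ip (0.86), and Gpi like Eno1 (0.90) and Tas1r1 (0.88). Pfkfb1 had the weakest partners, Hdgfl2 (0.78) and Actr1a (0.74). Over the 11 mouse libraries the closest were Bbox1 (0.97) and Ugt2b5 (0.94) for Pklr, Ugt2a3 (0.97) and Idh3b (0.96) for Khk, and Tnfrsf10b (0.96) and Lipa (0.95) for Ldha. For Gckr they were Tpcn1 (0.89) and Mylk (0.89), for Pfkl Tmem106c (0.96) and Scp2 (0.94), for Pfkfb1 Zfp691 (0.93) and Tbc1d8 (0.91), and for Slc2a2 Trpc4ap (0.91). These are descriptions over libraries that share group and normalization, chosen as the highest among all genes tested, and no gene was a top partner of the same member in both species.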

How the data were processed

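Polyadenylated RNA of rat and mouse liver was prepared with an Illumina TruSeq kit, per the labels. The RNA tables hold a signal that the authors deposited as normalized counts. Salmon, STAR and DESeq2 are named per the submitters' processing notes, beside the builds rn6, mm10, mm9 and hg19. Their versions and roles are not given in the labels used here. Low values were whole multiples of a single step, within 0.02 reads, for 39.1% to 82.6% of values per rat library and 26.5% to 59.9% per mouse library, so reads were not recovered and no count model was run. All per-sample columns of both tables were used.

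Values became log2(value + 1). Genes with a mean of at least 10 were tested (13640 in rats, 14596 in mice) with limma 3.58.1 in R 4.3.3, with a variance trend and no block, all 4 rat groups in a single fit. Two-sided p-values were adjusted by Benjamini-Hochberg over all genes tested. The fit was tested on simulated data. Some genes of the lists and a planned ratio between 2 genes are not reported here. Without lengths, levels were not compared between genes. Replicate numbers are shared by the groups but were not treated as pairs. Members, the 7 pathway and 10 marker lists, tests and alternatives were chosen with earlier results of these data known. Named genes are all members, up to 3 called genes per list, direction and comparison (or the 2 of highest mean where none was called), and the 2 genes most correlated with each member; others named were chosen after their values were seen.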

Additional observations from a re-analysis of the deposited data

Results flagged for a closer look

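Among 46 groups of libraries examined, each for a single gene, 2 had a library set apart from its fellows, where chance flags about 1 in 20 groups. For Pklr in rats, 2 weeks replicate 4 (2684 normalized counts against 4628 to 4774 in the others) took 0.946 of the group's range in its gap to the next library on the log2 scale. For Pfkl in mice, control replicate 4 (700.7 against 863 to 942) took 0.705 of its group's range. Pklr also differed between stages, which is the 6 months against 2 weeks comparison already given above. The change was -1.41 (limma adjusted p = 0.0249), and all 6 libraries at 6 months lay below all 4 at 2 weeks. That call was lost in 5 of 10 omissions of a library. The labels give no age, so age and duration of diabetes cannot be told apart.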

How the results depend on the processing

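Of 488 recomputed member changes with all libraries, 474 kept their direction and side of the threshold; of 557 with a library left out, 517 did. Rescaling to the same total turned the sign of Slc2a2 at 2 weeks (0.0263), of Pfkfb1 (-0.13), Khk (-0.0206), Slc2a2 (-0.0412) and Gpi (-0.12) at 6 against 3 months, and of Pfkfb1 (0.0286) and Slc2a2 (0.0093) after LNA-29. None of these was called. It shifted the median of all genes by -0.18 at 6 months against 2 weeks and by -0.16 at 6 against 3 months. With it, rises among called genes went from 47.1% to 62.5% at 3 months, from 52.4% to 33.8% at 6 months, from 52.9% to 16.0% at 6 months against 2 weeks and from 64.5% to 78.6% after LNA-29.

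Counts of genes called that moved by over 1.5 times were as follows. At 3 months against 2 weeks, 320 became 211 (same total), 195 (replicate block) and 169 (only those groups fitted). At 6 months against 2 weeks, 1203 became 2501 (same total) and 574 (replicate block), and the members called 2 (same total). At 6 against 3 months, 2 became 5 (pseudocount of 10) and 1 (replicate block). After LNA-29, 355 became 212 (no filter), 182 (same total), 195 (no variance trend) and 70 (replicate block). At 3 months against prediabetic 3 members were called instead of 5 with only those groups fitted. The cause was not tested.

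Apart from the fit with a replicate block, deviations of same-numbered libraries from their group means were correlated. These pairs had values from -0.18 to 0.22, and not every pair of any comparison exceeded 0.1. The block ended the Gckr call at 6 months (-0.75, adjusted p = 0.0848) and turned the sign of Pfkfb1 at 6 against 3 months (-0.0738) and after LNA-29 (0.0094).

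Leaving out each library in turn, genes called ranged from 0 to 3 at 2 weeks, 1449 to 2393 at 3 months, 1920 to 3573 at 6 months, 41 to 557 at 3 months against 2 weeks (557 without 3 months replicate 5), 317 to 1717 at 6 months against 2 weeks, 0 to 4 at 6 against 3 months and 120 to 540 after LNA-29 (540 without LNA-29 replicate 2). Shifts of over 1.5 times came without 2 weeks replicates 2 or 3 (against prediabetic, 0 to 3); without any single library of either group (6 against 3 months, 2 to 0 or 4); without 3 months replicate 1 (against prediabetic); without 2 weeks replicates 1, 2 or 4 or 3 months replicates 1, 2, 3 or 5 (against 2 weeks); without 2 weeks replicates 1, 2 or 4 or 6 months replicates 5 or 6 (6 months against 2 weeks); and after LNA-29 without any single treated library or control replicates 1 to 4. Members called ranged from 0 to 1 at 3 months against 2 weeks, 0 to 2 at 6 months against 2 weeks and 0 to 1 after LNA-29. Signs turned in ranges around 0: at 2 weeks Pfkfb1 -0.49 to 0.015 and Slc2a2 -0.19 to 0.0756; at 3 months against 2 weeks Pfkl -0.0796 to 0.0353; at 6 against 3 months Pfkfb1 -0.30 to 0.30, Khk -0.0191 to 0.29, Slc2a2 -0.15 to 0.31 and Gpi -0.0475 to 0.18; after LNA-29 Pfkfb1 -0.11 to 0.11 and Slc2a2 -0.0713 to 0.0311. Group sizes of 4 to 6 limit what can be called, and the files give no depth in reads.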
